A study of Homo sapiens with 2 samples.

Results

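The integrated stress response is the program by which cells answer amino acid shortage, heme shortage, viral RNA and misfolded protein in the endoplasmic reticulum (ER). Expression of 10 of its genes was examined in #1 siHOTAIR-transfected and siGFP-transfected cells: ATF4, DDIT3, ATF3, ASNS, TRIB3, CHAC1, SESN2, DDIT4, PSAT1 and HSPA5. They were chosen by name, and a probe was taken for a gene when its RefSeq accession belonged to that gene and its spots were not control spots. This gave 10 of the 19061 named genes with a probe on the arrays, with 14 probes and 30 spots. The cells were SBC-3, an adherent cell line of small cell lung cancer (SCLC). One culture was transfected with #1 siHOTAIR, an siRNA against the long noncoding RNA HOTAIR, and the control culture with siGFP, which targets green fluorescent protein, a protein that human cells lack. No other treatment is given for either, and the time from transfection to the extraction of RNA for the arrays is not given in the sources used here. The RNA of each culture was read on 1 one-colour Agilent array, so that neither condition had a replicate and no test between them was possible. The siRNA, the culture and the array cannot be told apart, and in RNA of a whole culture fewer cells of a type and less RNA per cell cannot be told apart either.

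In this response, 4 kinases (EIF2AK1 to EIF2AK4) phosphorylate the translation initiation factor eIF2, which lowers protein synthesis in general while the mRNA of the transcription factor ATF4 is translated more. ATF4 then acts with its partners on genes of amino acid synthesis and transport, of redox balance and of growth control, and it induces further transcription factors such as DDIT3, also known as CHOP. Since ATF4 is controlled in large part through translation, an array measures the mRNA of ATF4 and of its targets, and not the ATF4 protein or the phosphorylation of eIF2.

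The promoters of 4 of the genes are shown because each holds a match to a binding element of stress response factors, and because ASNS, ATF3 and HSPA5 are among the genes with the largest differences below while CHAC1 had nearly equal signals. The sequences are from RefSeq (GRCh38.p14) and run from 250 bases before the transcription start to 50 bases after it, 5′ to 3′ along the gene, with the match in capitals. Matches were searched on both strands for the C/EBP-ATF response element (TGATGNAA), the element through which ATF4 acts, for the ER stress response element (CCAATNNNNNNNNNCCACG) and for the cAMP response element (TGACGTCA).
ASNS promoter (chr7:97872359-97872658, minus strand): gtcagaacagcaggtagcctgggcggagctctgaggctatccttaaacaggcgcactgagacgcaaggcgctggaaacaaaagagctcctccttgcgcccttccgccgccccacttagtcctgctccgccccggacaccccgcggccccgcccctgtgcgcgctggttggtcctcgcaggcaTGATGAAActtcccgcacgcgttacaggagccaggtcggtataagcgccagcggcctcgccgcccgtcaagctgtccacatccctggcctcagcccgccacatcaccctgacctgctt
ATF3 promoter (chr1:212565157-212565456, plus strand): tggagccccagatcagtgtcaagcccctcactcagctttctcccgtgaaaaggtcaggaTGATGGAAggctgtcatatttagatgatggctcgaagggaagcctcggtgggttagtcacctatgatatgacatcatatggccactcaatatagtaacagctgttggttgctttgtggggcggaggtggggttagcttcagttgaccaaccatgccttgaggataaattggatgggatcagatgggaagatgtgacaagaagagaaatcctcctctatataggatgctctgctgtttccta
CHAC1 promoter (chr15:40953221-40953520, plus strand): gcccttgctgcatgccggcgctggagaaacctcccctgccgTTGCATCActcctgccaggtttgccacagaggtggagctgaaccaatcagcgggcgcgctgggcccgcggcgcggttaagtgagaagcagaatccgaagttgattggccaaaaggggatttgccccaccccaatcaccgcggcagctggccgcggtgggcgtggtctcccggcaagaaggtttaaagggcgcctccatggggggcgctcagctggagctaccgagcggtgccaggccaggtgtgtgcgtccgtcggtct
HSPA5 promoter (chr9:125241294-125241593, minus strand): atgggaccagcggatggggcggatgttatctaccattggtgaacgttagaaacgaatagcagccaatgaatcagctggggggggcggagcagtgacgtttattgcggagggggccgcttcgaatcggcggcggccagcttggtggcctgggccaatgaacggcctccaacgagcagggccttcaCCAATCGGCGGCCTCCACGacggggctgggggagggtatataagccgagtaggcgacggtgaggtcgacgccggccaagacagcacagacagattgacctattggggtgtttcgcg
The C/EBP-ATF response element was matched in ASNS, with its first base at position -68 from the start, in ATF3 at -191 and in CHAC1 at -209, the last on the opposite strand. It was in 3.62% of 35116 promoter windows and in at least 1 window of 4.46% of 27305 genes. The ER stress response element was matched in HSPA5 at position -66, and in 0.0769% of all windows. The cAMP response element was in 1.85% of all windows and in none of those of the 10 genes. ASNS and ATF3 each had a second window, from another start, with no match, and the windows of ATF4, DDIT3, TRIB3, SESN2, DDIT4 and PSAT1 had none. A match describes the letters in a window and not the binding of a factor.

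The array signals were first checked on the targeted RNA and on the cell type. HOTAIR was measured by 1 spot, which read 108 against 244 in the control, and its log2 ratio was -1.22 with an SD of 0.18 for measurement error. All ratios here are the log2 signal in #1 siHOTAIR-transfected cells minus that in siGFP-transfected cells, each taken relative to the 75th percentile of the same array, which was 650.3 and 629.9. A signal is the fluorescence of a spot after background subtraction by the scanner software, in its own units. Of the SCLC and neuroendocrine markers reported, NEUROD1, DLL3, ENO2 and YAP1 were well above background on both arrays, CHGA and NCAM1 on the #1 siHOTAIR array alone, and INSM1, POU2F3 and SYP on neither. After #1 siHOTAIR, CHGA was at least 2.44-fold higher and NEUROD1 1.81-fold lower, with a ratio of -0.85. Of 9 markers of fibroblasts, blood and endothelial cells, 5 were well above background on both arrays, with summed signals of 4907 and 4394 in #1 siHOTAIR-transfected and siGFP-transfected cells, most of which was COL1A2. Of these 5, COL1A1 (0.96), PTPRC (0.75) and CD68 (0.63) had at least 1.5-fold more signal in #1 siHOTAIR-transfected cells, while COL1A2, the other collagen, read by 10 spots, had a ratio of -0.04 and CDH5 one of -0.05. Their median was 0.63, and -0.04 when the median over the probes of a gene was used. PTPRC was read from 1 dim spot, at 106 in #1 siHOTAIR-transfected and 61 in siGFP-transfected cells. Another of its 4 probes, well above background on the siGFP array alone, had a ratio of -0.83 but no bound in that direction. The rest were well above background on neither array. CD68 was dim too, at 89.2 and 55.4, with single-spot ratios of 0.36 and 0.89. DCN, LUM, HBB and PECAM1 did not exceed background clearly on either array, and the part of any marker in the results below was not tested.

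By the brightest probe of each gene, ATF3 and ASNS had the largest differences among the 10 genes, both with less signal in #1 siHOTAIR-transfected cells. HSPA5 and DDIT4 were the 2 genes with more. The log2 ratios were -0.96 for ATF3, -0.80 for ASNS, 0.49 for HSPA5 and 0.49 for DDIT4. ATF4 itself had a ratio of -0.25, and the remaining 5 genes lay between -0.24 and -0.01. No gene of the 10 differed at least 2-fold in either direction by its brightest probe. Among all 13014 named genes compared, which exceeded background clearly on 1 array or both, 2.74% were at least 2-fold higher and 3.41% at least 2-fold lower. Among the 12031 that did so on both arrays, called genes on both arrays from here on and including all of the 10, these shares were 1.4% and 1.48%. At 1.5-fold and by the brightest probe, ATF3 and ASNS were lower and none was higher. This stands beside 8.71% lower and 8.12% higher of all genes compared, and 5.95% and 6.82% of those on both arrays. The median ratio of the 10 genes was -0.13, with 8 below 0 and 2 above, while the median of all genes compared was 0.02, with 47.7% below 0.

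The error of each ratio was taken in 2 ways. The first is the SD expected from repeated spots, from probes with 10 spots of like signal on the same arrays, and it lay between 0.03 and 0.09 for the 10 genes. The second is the scanner software's own error estimate, which lay between 0.20 and 0.21. The ratios of 8 genes exceeded the first, and those of ATF3, ASNS, ATF4, PSAT1, HSPA5 and DDIT4 exceeded both. Neither covers the difference between cultures, for which there was no replicate.

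**Figure D1:**
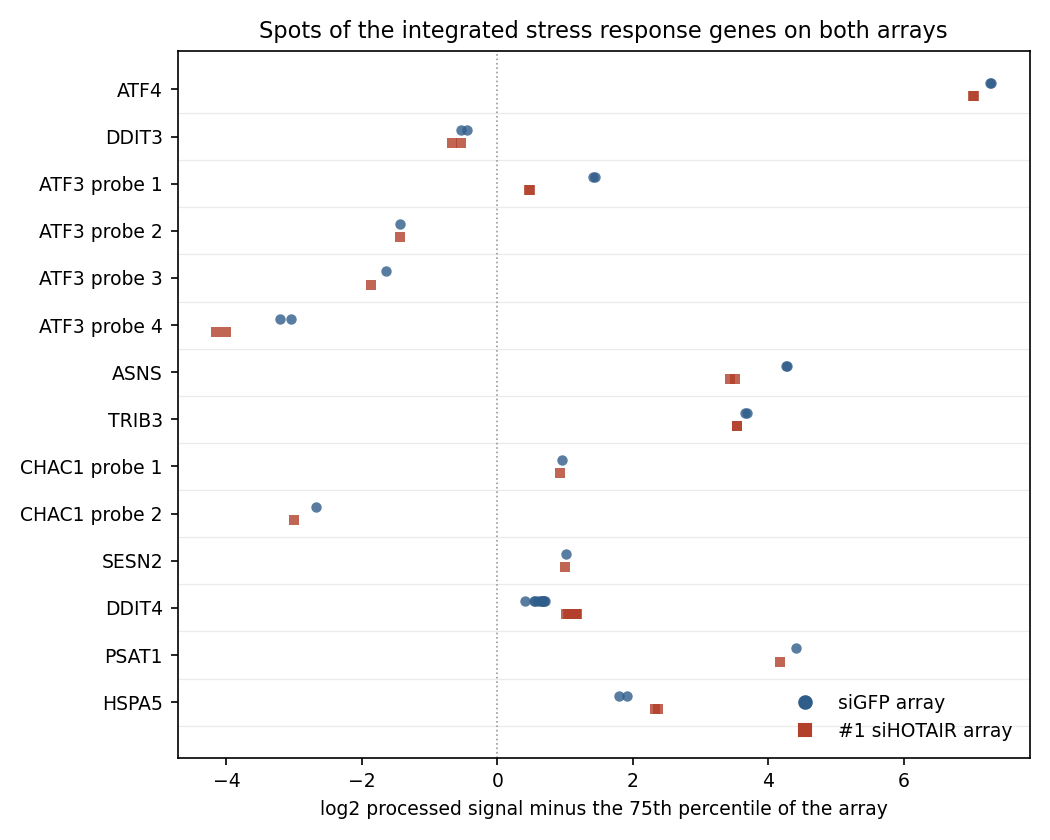
Every spot of the 10 genes, 1 row per probe, with the log2 processed signal minus the 75th percentile of the array on the x axis. Circles are the siGFP array and squares the #1 siHOTAIR array, and the squares lie to the left of the circles for ATF3 probes 1 and 4 and for ASNS and to the right for DDIT4 and HSPA5.

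ATF4 is the transcription factor at the centre of the response. Its 1 probe had 2 spots, with signals of 84649 and 85848 in #1 siHOTAIR-transfected cells and 97410 and 98473 in siGFP-transfected cells. The spots of the arrays did not overlap, and after scaling the signal was 15.7% lower in #1 siHOTAIR-transfected cells, with a log2 ratio of -0.25 with an SD of 0.05 from repeated spots. The ratio exceeded both error estimates, while 20.1% of the genes on both arrays had a lower one.

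DDIT3 encodes CHOP, a transcription factor that ATF4 induces and that is linked to cell death under prolonged stress. Its spots read 409 and 448 in #1 siHOTAIR-transfected and 434 and 461 in siGFP-transfected cells. These signals overlapped between the arrays before scaling. After scaling, the higher #1 siHOTAIR spot and the lower siGFP spot were both at -0.54. The log2 ratio of -0.11 was larger in size than its SD of 0.08 from repeated spots and smaller than the software's estimate of 0.21.

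ATF3 encodes a transcription factor of the same family as ATF4, one that many kinds of stress induce early. It had 4 probes, and they did not give the same ratio. The brightest probe had 2 spots, in distant rows of the slide (186 and 341), with signals of 903 and 909.8 in #1 siHOTAIR-transfected and 1720.3 and 1686 in siGFP-transfected cells. The signals did not overlap and were 48.4% lower in #1 siHOTAIR-transfected cells, with log2 ratios of -0.98 and -0.94 for the single spots and an SD of 0.06 for their mean of -0.96. Of 12031 genes on both arrays, 209 had a lower ratio (1.74%). A dim probe, called probe 4 here, read 36.7 and 40.5 on the #1 siHOTAIR array, not well above background, and 67.9 and 76.5 on the siGFP array. By this probe ATF3 was 1.93-fold lower, a ratio of -0.95 with an SD of 0.16 from repeated spots and 0.41 from the software. Its mean of 38.6 on the #1 siHOTAIR array was just above the lowest signal well above background there (37.3), and 1 spot (36.7) was below it. The fold is therefore that of the signals themselves, but it rests on a signal not well above background. Both ATF3 probes with 2 spots had less signal in #1 siHOTAIR-transfected cells, and only the brightest was well above background on both arrays. The other probes had 1 spot each. Probe 2 read 239.7 in #1 siHOTAIR-transfected and 234 in siGFP-transfected cells, with a log2 ratio of -0.01, and probe 3, whose annotation names another transcript accession (NM_001674; the probe sequences were not used), read 179 and 202, a ratio of -0.22. Both ratios were within an SD of 0.23 from repeated spots at these signals. That of probe 3 (-0.220) was slightly larger in size than the software's estimate of 0.217. The difference in ATF3 was thus present in 2 of its 4 probes, 1 of them too dim on the #1 siHOTAIR array to measure well. Why the probes differ was not tested.

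Of the genes of amino acid synthesis, ASNS encodes asparagine synthetase, an enzyme whose gene ATF4 induces when amino acids are short. Its spots read 7004 and 7436 in #1 siHOTAIR-transfected cells and 12051 and 12221 in siGFP-transfected cells. The signals did not overlap, and ASNS was 42.4% lower in #1 siHOTAIR-transfected cells, with ratios of -0.83 and -0.76 for the single spots and an SD of 0.05 for their mean of -0.80. A lower ratio was found in 349 of the genes on both arrays (2.90%). The ratio of ASNS differed from that of the brightest ATF3 probe by 0.16, with an SD of 0.08 from repeated spots. This difference was smaller than the software's estimate of 0.20 for either ratio alone.

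PSAT1 encodes phosphoserine aminotransferase of serine synthesis. It had 1 spot, which read 11723 in #1 siHOTAIR-transfected and 13366 in siGFP-transfected cells. The signal was 1.18-fold lower, with a log2 ratio of -0.24 and an SD of 0.07, and there was no second spot to compare. Its ratio and that of ATF4 differed by 0.01, less than the SD of 0.09 of that difference.

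TRIB3 encodes a pseudokinase that ATF4 and CHOP induce and that restrains ATF4 in turn. Its spots read 7519.8 and 7576 in #1 siHOTAIR-transfected and 7968 and 8144 in siGFP-transfected cells. They did not overlap, and the log2 ratio of -0.14 was above its SD of 0.05 from repeated spots and below the software's estimate of 0.20.

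CHAC1 encodes an enzyme that degrades glutathione and is among the genes downstream of ATF4. The brighter of its 2 probes, with 1 spot, read 1238 in #1 siHOTAIR-transfected and 1225 in siGFP-transfected cells, with a log2 ratio of -0.03 after scaling with an SD of 0.09. The dimmer probe read 81.3 and 98.3, a ratio of -0.32 with an SD of 0.23 from repeated spots and 0.27 from the software. The dimmer probe thus exceeded both error estimates, while by the brighter one CHAC1 did not differ beyond measurement error.

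SESN2 and DDIT4 encode inhibitors of mTORC1, the kinase complex that drives growth. The 1 spot of SESN2 read 1303 in #1 siHOTAIR-transfected and 1272 in siGFP-transfected cells, with a log2 ratio of -0.01 with an SD of 0.09, so no difference was detectable by this spot. DDIT4, also known as REDD1, was the best measured of the genes, with 10 spots of 1 probe. Its signals ran from 1310.0 to 1476, with a median of 1399, in #1 siHOTAIR-transfected cells and from 835 to 1029, with a median of 989.9, in siGFP-transfected cells. The spots of the arrays did not overlap, and DDIT4 was 40.5% higher in #1 siHOTAIR-transfected cells, with a log2 ratio of 0.49 with an SD of 0.03. The single spots gave ratios from 0.36 to 0.61, all 10 above 0. The 10 spots are repeats of 1 probe on 1 pair of arrays and do not stand for 10 cultures. Of the genes on both arrays, 1143 had a higher ratio (9.50%).

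HSPA5 encodes BiP, the main chaperone of the ER, whose gene is known chiefly as a target of the unfolded protein response and its factors ATF6 and XBP1. Its spots read 3351 and 3269 in #1 siHOTAIR-transfected and 2197 and 2381 in siGFP-transfected cells. They did not overlap, and HSPA5 was 40.2% higher in #1 siHOTAIR-transfected cells, with ratios of 0.56 and 0.41 for the single spots and an SD of 0.06 for their mean of 0.49. A higher ratio was found in 1158 of the genes on both arrays (9.63%). The ratios of HSPA5 and DDIT4 did not differ beyond measurement error, and that of HSPA5 was 0.50 above that of SESN2, the next gene in order.

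**Figure D2:**
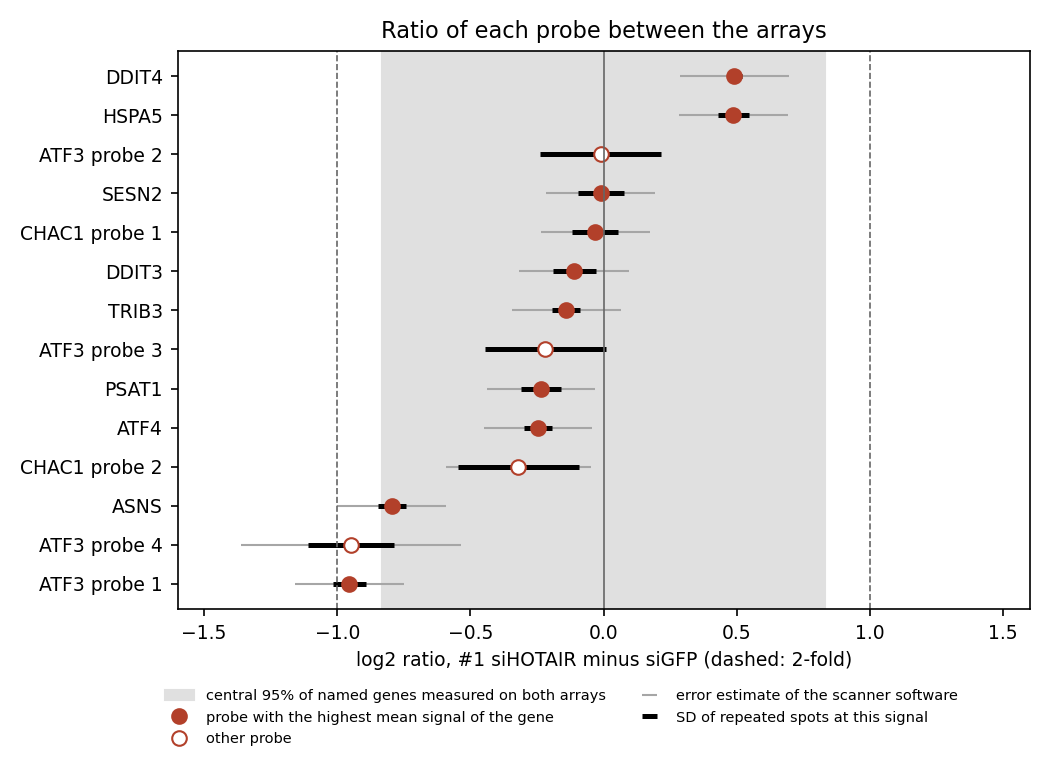
Log2 ratio of each of the 14 probes, #1 siHOTAIR minus siGFP, with thick bars for the SD of repeated spots, thin bars for the scanner software's error and a shaded band for the central 95% of genes on both arrays (-0.83 to 0.83). ATF3 probe 1 lies below the band and ASNS just inside it. ATF3 probe 2 lies near 0 and probe 3 at -0.22, and probe 4, a dim signal on the #1 siHOTAIR array, lies at -0.95.

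Large differences between the arrays were not spread evenly over the slide. Of 700 compared spots that differed at least 4-fold, 68% were in rows 1 to 144 of 384, which held 38.2% of the compared spots. Of the 30 spots of the 10 genes, 12 were in these rows, and none of the 30 was marked as an outlier. The spots of the ATF3 probe 1 (rows 186 and 341) and of ASNS (rows 356 and 369) lay outside them. Both spots of ATF4 (rows 28 and 51), both of ATF3 probe 4 (rows 83 and 111) and the 1 spot of PSAT1 (row 60) lay inside. HSPA5 had 1 spot in each area, with a log2 ratio of 0.56 in rows 1 to 144 and 0.41 in the other rows. TRIB3 also had 1 spot in each area, with -0.13 and -0.15 in the same order. DDIT4 had 5 spots in each, with mean log2 ratios of 0.44 in rows 1 to 144 and 0.54 in the other rows.

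Upstream of ATF4, 3 of the 4 eIF2 kinase genes were compared. EIF2AK4, which encodes GCN2, the sensor of amino acid shortage, read 649 in #1 siHOTAIR-transfected and 1185 in siGFP-transfected cells by 1 spot, with a log2 ratio of -0.91 with an SD of 0.10. EIF2AK1, the heme-regulated kinase, had a ratio of -0.11. EIF2AK2, the kinase PKR that double-stranded RNA activates, had one of 0.08 by its brighter probe, with single-spot ratios of -0.05 and 0.21. Its dimmer probe, with 1 spot, read 300 in #1 siHOTAIR-transfected and 220 in siGFP-transfected cells. That ratio was 0.40, with an SD of 0.18 from repeated spots and 0.21 from the software, so the EIF2AK2 probes did not give the same ratio. EIF2AK3, which encodes the ER stress sensor PERK, was not well above background on either array. Among the 9 compared genes of eIF2, its exchange factor eIF2B and the eIF2 phosphatases, the median ratio was 0.00, from -0.18 for PPP1R15B to 0.36 for EIF2B2, and none differed 2-fold. PPP1R15A, which encodes GADD34, a phosphatase subunit that ATF4 and CHOP induce and that ends the response, had a ratio of -0.02 with an SD of 0.08. PPP1R15B encodes the constitutive counterpart and EIF2B2 a subunit of eIF2B.

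Wider lists of genes around ATF4 had medians below 0, and the ER chaperones one above. Of 12 genes of serine, one-carbon and proline synthesis, 10 were below 0 and the median was -0.20. Here CTH, which encodes the cystathionine gamma-lyase of cysteine synthesis, read 765 after #1 siHOTAIR and 1491 after siGFP and was thus 2.01-fold lower, with ratios of -1.01 in both of its spots. It was the 1 gene of the stress response lists past 2-fold, and only just: with the spike-in RNA its ratio was -0.91, with no scaling -0.96, with normexp -0.92 and without background correction -0.91, all short of 2-fold. The highest ratio of this list was 0.32, of ALDH18A1, an enzyme of proline synthesis. Of 9 compared amino acid transporters 6 were below 0, with a median of -0.13, from -0.88 for the glycine transporter SLC6A9 to 0.43 for the neutral amino acid transporter SLC38A2. This median was -0.07 over the genes on both arrays and -0.01 with dim signals at their bound, since SLC1A4, counted below 0, exceeded background clearly on the siGFP array alone and has no bound in that direction, and it was -0.02 without background correction. Of 6 compared partners of ATF4 in the bZIP family and co-regulators, 5 were below 0, with a median of -0.18. The lowest was JUN, a subunit of the factor AP-1, with signals of 483 in #1 siHOTAIR-transfected and 870 in siGFP-transfected cells and a ratio of -0.89, and the highest was CEBPG, a partner of ATF4, at 0.23. Of 19 cytosolic aminoacyl-tRNA synthetases, which charge tRNAs with amino acids, 16 were below 0, but the median of -0.05 was small, from -0.35 for WARS1 to 0.35 for HARS1, and with scaling to the spike-in RNA it was 0.05. Of 16 other targets of ATF4 and CHOP 11 were below 0, with a median of -0.10, from -0.54 for the death receptor gene TNFRSF10B to 0.70 for TXNIP, the thioredoxin inhibitor.

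On the ER side, 13 of 15 chaperones and folding enzymes were above 0, with a median of 0.27, and none differed 2-fold. SDF2L1, an ER protein of the chaperone complexes, had the highest ratio, 0.78, by 1 spot with signals of 84497 in #1 siHOTAIR-transfected and 47511 in siGFP-transfected cells. SIL1, a nucleotide exchange factor for BiP, had the lowest, -0.44, and the co-chaperone gene DNAJB9 was at 0.03 with an SD of 0.09. HSPA5 was thus not alone among ER chaperone genes in its direction. Of 9 compared ER sensors and degradation genes, 3 were above 0 and the median was -0.01. XBP1, a transcription factor of the unfolded protein response, had 10 spots and a ratio of -0.20 with an SD of 0.02, HERPUD1, a gene of ER-associated degradation, had 0.08, and DERL1, also of that pathway, had the highest, 0.27. Of 9 compared cytosolic heat shock genes 8 were above 0, with a median of 0.11, from -0.14 for DNAJB1 to 0.26 for BAG3. These counts stand beside 52.3% of all genes compared with a ratio above 0, and they describe 2 arrays.

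**Figure D3:**
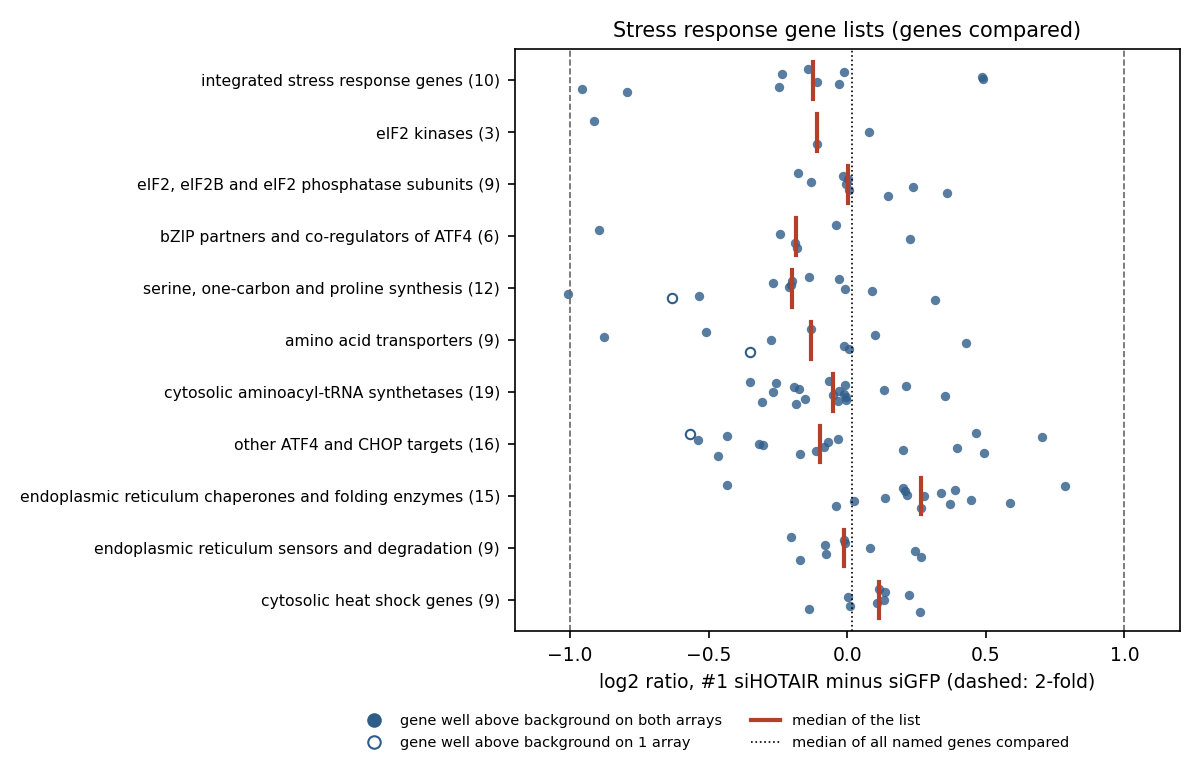
Log2 ratio, #1 siHOTAIR minus siGFP, of each compared gene of the 10 genes and of the wider lists, with the number compared in parentheses, filled points for genes on both arrays and open points for genes on 1 array. Red bars are list medians, at -0.13 for the 10 genes and 0.27 for the ER chaperones, and the dotted line is the median of all genes compared, 0.02.

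The ratios were computed again under 8 other scalings, background corrections or sources of the values. Each gene was read from its brightest probe, so ATF3 probes 2, 3 and 4, with ratios of -0.01, -0.22 and -0.95, are not covered. ATF3 ranged from -0.99 to -0.86, ASNS from -0.84 to -0.70, ATF4 from -0.27 to -0.15, HSPA5 from 0.45 to 0.58 and DDIT4 from 0.44 to 0.59. PSAT1, TRIB3 and DDIT3 were below 0 under all 8 as well, the last with -0.01 under scaling to the spike-in RNA. CHAC1 and SESN2 were above 0 with scaling to the spike-in RNA and with no scaling. Scaling to the spike-in RNA moved the median of all genes on both arrays from 0.03 to 0.13.

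**Figure D4:**
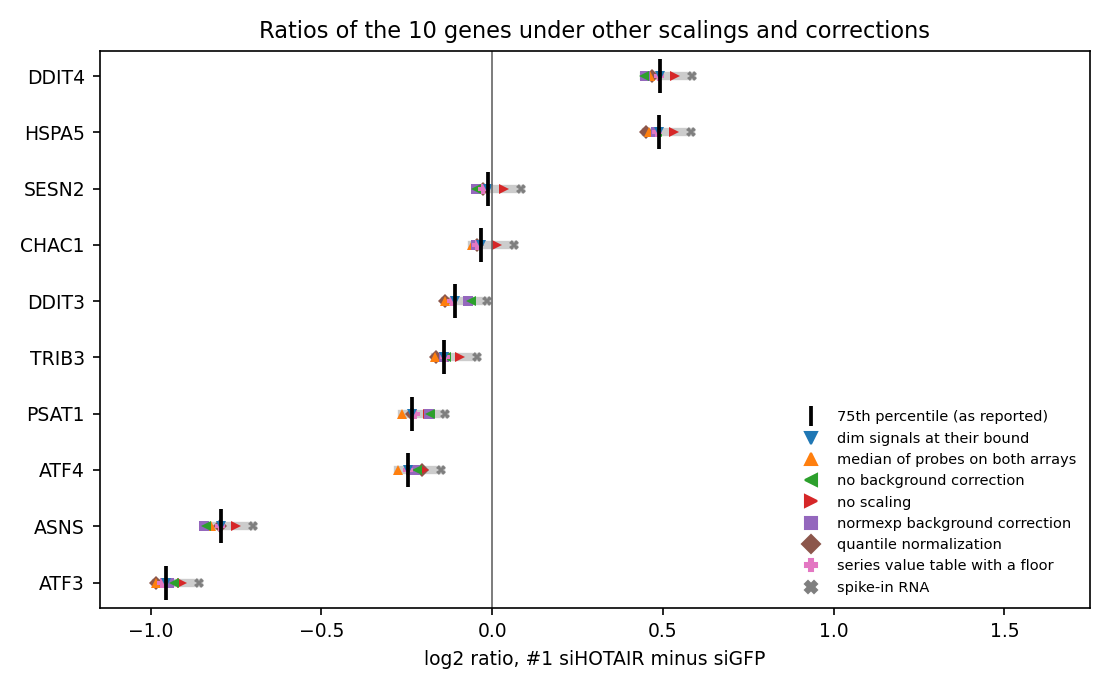
Log2 ratios of the 10 genes, #1 siHOTAIR minus siGFP, each by its brightest probe. A black bar is for scaling to the 75th percentile and a symbol for each of the 8 alternatives. ATF3 and ASNS lie at -0.70 or lower and HSPA5 and DDIT4 at 0.44 or higher under each, while SESN2 and CHAC1 lie on both sides of 0.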

How the data were processed

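RNA of 1 #1 siHOTAIR-transfected and 1 siGFP-transfected SBC-3 culture was labelled with Cy3 and hybridized to Sure Print G3 Human GE arrays by the authors, who used Feature Extraction 10.10.1.1 on the scans (per the submitters' processing notes). The deposited values are intensities, and the processed signal has the background subtracted and trends across the slide corrected, with no normalization between arrays. The deposited value table held the same intensity as the background-subtracted signal (largest difference 0). Groups were taken from the sample labels.

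Each array held 62976 spots, 58717 of them not controls. Outlier spots were left out (393 on the #1 siHOTAIR and 375 on the siGFP array), the 75th percentile of the array was subtracted on the log2 scale, and repeated spots were averaged. Probes with 50% or more of their spots well above background on either array were compared (52.1% of probes passed on the #1 siHOTAIR and 55.3% on the siGFP array). The number of arrays limits the precision, and no P-value was computed. For probes on 1 array only, the fold is a bound against the lowest signal well above background on the other array (37.3 and 28.6). Where the probe's own signal there was higher than that, as for ATF3 probe 4, the fold is that of the signals themselves. The signal on that array was still not well above background. A gene was read from its probe with the highest mean signal. Accessions were matched without versions to a RefSeq gene table of GRCh38.p14, used for names and promoters only, which named 58.5% of the probes. The genes and lists were chosen with earlier results of these data known. Beside the 10 genes and HOTAIR, the genes named are those of each list past 2-fold, with the highest and lowest ratio on both arrays, and 9 genes of the steps next to ATF4 and the ER response. Cell type markers and SLC1A4 were given with ratios after their values were seen, and 1 cell type marker is not reported here. Python 3.11.15 (numpy 2.4.6, pandas 2.3.3) and R 4.3.3 with limma 3.58.1 (quantile normalization, normexp with an offset of 50) were used, and the calling of changes was tested on simulated data. Alternatives were other scalings, background corrections, filters, thresholds of 1.5-fold and 3-fold and other choices of probe.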

Additional observations from a re-analysis of the deposited data

How the results depend on the processing

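Of the 10 genes, ATF3, ASNS, ATF4, PSAT1, TRIB3, DDIT3, HSPA5 and DDIT4 kept the sign of their ratio under the 8 other scalings, corrections and sources tried, and CHAC1 and SESN2 under 6 of the 8. The median ratio of the 10 genes was -0.13 and moved most with scaling to the spike-in RNA, to -0.029, since that scaling moved all genes alike. No gene of the 10 was 2-fold higher or lower under any scaling, correction, filter or choice of probe tried, or at a 3-fold threshold. At a threshold of 1.5-fold 2 were lower by their brightest probes. ATF3 was 1 of them, and its probes 2 and 3 had ratios of -0.01 and -0.22. The median of the tRNA synthetases was above 0 with the spike-in RNA. The HOTAIR ratio ranged from -1.25 to -0.73, the latter without background correction. No paired analysis was possible because each condition had 1 array. Dim signals limit ATF3 probes 2 to 4 and the second CHAC1 probe, and 3 of the 10 genes were read from 1 spot.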
